A study of Mus musculus with 29 samples.

Results

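The genes described here are Sost, which encodes sclerostin, its paralog Sostdc1, the receptor genes Lrp4, Lrp5 and Lrp6, and Kremen1, in the aortic arch of mice treated with an antibody against sclerostin. They were chosen by name, and all 6 were found among the 51456 gene symbols listed for each of the 29 libraries. Expression was measured by RNA sequencing of whole aortic arch from male C57BL/6 mice aged 14 weeks when pumps were implanted. In 10 libraries the mice lacked apolipoprotein E (ApoE KO), carried a pump that infused 15.27 mg/mL angiotensin II (AngII) at a rate of 0.11 µL/hr, and were injected once a week with 10 mg/kg of the sclerostin antibody Scl-Ab over 4 weeks (the Scl-Ab model). In 9 libraries the mice had the same genotype and pump and received vehicle injections (the vehicle model). In 10 libraries the mice were wild type (WT), with vehicle in the pump and vehicle injections. All mice ate chow, and the libraries came from satellite animals. The labels mention 9 WT mice but 10 WT libraries, so n is a number of libraries, and the p-values measure the spread between libraries. Genotype and AngII differ together between both model groups and WT, and their effects cannot be told apart.

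Sclerostin is a secreted protein best known from osteocytes, the cells embedded in bone. It binds the first extracellular propellers of LRP5 and LRP6, the co-receptors through which Wnt ligands stabilise β-catenin, and so lowers Wnt signalling and bone formation. LRP4 binds sclerostin and helps it act, and in muscle LRP4 is the receptor for agrin at the neuromuscular junction. SOSTDC1 (also called Wise or ectodin) is a secreted antagonist of BMP and Wnt signals, and KREMEN1 is a receptor for Dickkopf proteins that removes LRP6 from the cell surface. Sost is also transcribed in vascular smooth muscle of the aorta. The antibody binds the protein, so RNA values report transcription and RNA stability and not whether sclerostin was neutralised.

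The unit resembles FPKM and corrects for gene length, so levels can be compared between genes. For a 2 kb gene, 1 unit was worth 31.5 to 43.5 fragments depending on the library. Apoe checked the labels: it averaged 8.39 ± 2.79 in the Scl-Ab model, 6.71 ± 1.70 in the vehicle model and 264 ± 65.0 in WT (SD, n = 10, 9 and 10). The defining markers of smooth muscle (Acta2, Myh11, Tagln and Cnn1) summed to 5170 to 12600 in the Scl-Ab model, 4630 to 15900 in the vehicle model and 16100 to 19600 in WT, so the labelled tissue was present in every library. The defining markers of bone (Dmp1, Phex, Mepe and Bglap) summed to 0.914 to 2.27 in the Scl-Ab model, 0.713 to 2.50 in the vehicle model and 1.81 to 2.99 in WT, most of it Phex. Mepe was listed at 0 in 22 libraries, Bglap in 13 and Dmp1 in 3, and the highest Dmp1 value was 0.263. Cardiac muscle markers (10 genes) summed to 61.0 to 1270 in the Scl-Ab model, 37.6 to 655 in the vehicle model and 36.5 to 617 in WT.

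Fold changes are from limma on log2(value + 1), in 1 fit of all 29 libraries over 13510 genes, with Benjamini-Hochberg adjustment and a call under 0.05. On this scale the change of low genes is understated. Of the 6 genes, 5 passed the filter on low values, which required 9 libraries at 1 or above. Sostdc1 did not pass. Between the vehicle model and WT, 3 of the 5 were called (Kremen1 and Lrp4 higher, Sost lower), where 53.7% of all genes were (22.7% higher and 31% lower). Between the Scl-Ab model and the vehicle model, 0 of the 5 were called with limma, where 7.44% of all genes were (2.64% higher and 4.8% lower). By the Wilcoxon test the count was also 0, and at an unadjusted p under 0.05 it was 4 of the 5 (Sost, Kremen1, Lrp4 and Lrp5), where 25% of all genes were under it. Between the Scl-Ab model and WT, 2 of the 5 were called (Lrp4 higher, Sost lower), where 50.4% of all genes were (19.8% higher and 30.5% lower). The 2 comparisons with WT share the WT libraries. The balance of directions depends on scaling: of the genes called between the Scl-Ab model and the vehicle model 35.4% were higher as deposited and 47.9% after median-of-ratios scaling, and between the Scl-Ab model and WT 39.4% and 50.4% were.

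**Figure D1:**
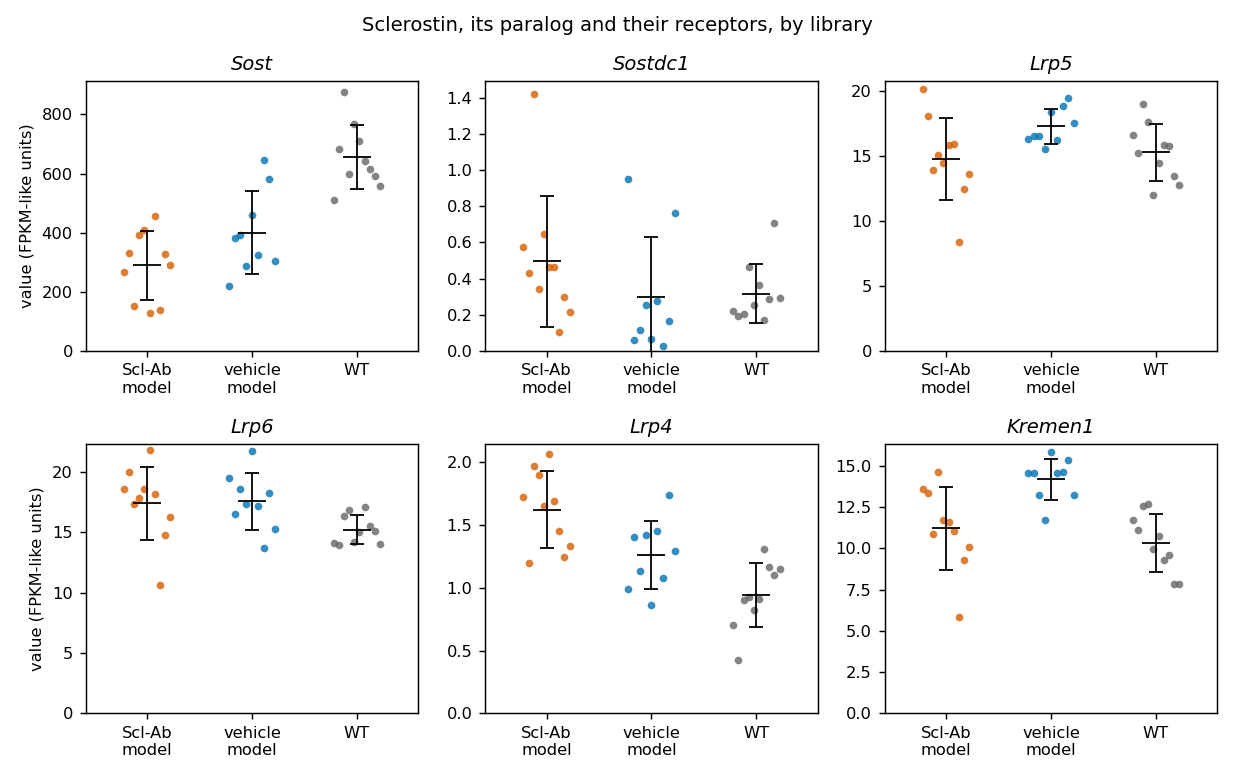
Values of the 6 genes in each library, in FPKM-like units on linear axes from 0; points are libraries, bars the mean and SD (n = 10, 9 and 10; the lower Sostdc1 bar of the vehicle model is cut at 0). Sost lay between 128 and 456 in the Scl-Ab model, 219 and 647 in the vehicle model and 509 and 876 in WT.

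Sost was by far the most abundant of the 6. In WT it ranked 91st of all listed genes by its mean value (57th to 139th in single libraries). In the vehicle model it ranked 168th, and in the Scl-Ab model 238th. The ratio of Sost to Lrp6 averaged 16.8 ± 6.33 in the Scl-Ab model, 23.5 ± 10.5 in the vehicle model and 43.2 ± 7.11 in WT (SD, n = 10, 9 and 10), and Sost exceeded both Lrp5 and Lrp6 in 29 of 29 libraries. Next came Lrp6 and Lrp5. Lrp6 was the higher in 9 of 10 Scl-Ab libraries, 5 of 9 vehicle libraries and 5 of 10 WT libraries. The ratio of Lrp6 to Lrp5 averaged 1.19 ± 0.122 in the Scl-Ab model, 1.02 ± 0.156 in the vehicle model and 1.01 ± 0.114 in WT (SD, n = 10, 9 and 10), and whether the groups differ in it was not tested. Kremen1 followed, below Lrp5 in 29 libraries and below Lrp6 in 28. Lrp4 lay below Kremen1 and above Sostdc1 in all 29.

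Sost lies on GRCm38 chromosome 11 from 101962458 to 101967015 on the minus strand (ENSMUSG00000001494.6), with 2 exons and 2066 bases of exon sequence. The 250 bases before its start (RefSeq, GRCm38.p6 chr11:101967016-101967265, minus strand) are printed because Srf, which encodes serum response factor, a regulator of contractile genes through the CArG box, was among the genes whose values were most like those of Sost. This search was chosen after those values were seen. Capitals mark the E-box match:
Sost: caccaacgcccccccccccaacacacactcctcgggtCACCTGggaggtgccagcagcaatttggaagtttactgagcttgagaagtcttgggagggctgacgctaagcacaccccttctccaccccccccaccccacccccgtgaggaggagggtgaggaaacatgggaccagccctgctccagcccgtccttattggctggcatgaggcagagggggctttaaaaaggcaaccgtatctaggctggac
Both strands were searched for 6 motifs in 32536 promoters of this length. The E-box CANNTG, which reads the same on both strands, matched once in Sost, 213 bases before the start, and in 66.2% of promoters. There was no match in the Sost window for the CArG box (1.48% of promoters), the MEF2 element (2.89%) or the TATA box TATAAA (12.3%). Nor was there one for the AP-1 site TGASTCA, with C or G at S (4.45%), or the GC box GGGCGG (33.0%). No match says only that these letters are not in this window.

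Sost ranged from 128 through a median of 309 to 456 in the Scl-Ab model, from 219 through 381 to 647 in the vehicle model and from 509 through 628 to 876 in WT. All 10 Scl-Ab libraries lay below all 10 WT libraries, which held for 6.54% of all genes in that direction. No other of the 5 tested genes separated 2 groups fully in any comparison, where 5.74% of all genes lay wholly higher in the Scl-Ab model than in WT, 7.81% wholly higher and 9.04% wholly lower in the vehicle model than in WT, and 0.0296% wholly higher and 0.111% wholly lower in the Scl-Ab model than in the vehicle model. In the vehicle model 7 of 9 libraries lay below all WT libraries. The Scl-Ab and vehicle models overlapped, with 3 of 10 Scl-Ab libraries (numbers 12, 15 and 17, between 128 and 150) below all vehicle libraries. Sost fell in the Scl-Ab model against WT to 0.409-fold (95% confidence interval 0.3004 to 0.556, log2 -1.29, SE 0.22, limma adjusted p = 1.44e-05). It fell in the vehicle model against WT to 0.585-fold (interval 0.427 to 0.802, log2 -0.77, SE 0.22, limma adjusted p = 0.00459). Against the vehicle model it was 0.698-fold in the Scl-Ab model (interval 0.509 to 0.957, log2 -0.52, SE 0.22), which did not pass (limma adjusted p = 0.141). In bulk tissue, fewer cells that make an RNA and less RNA per cell cannot be told apart.

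**Figure D2:**
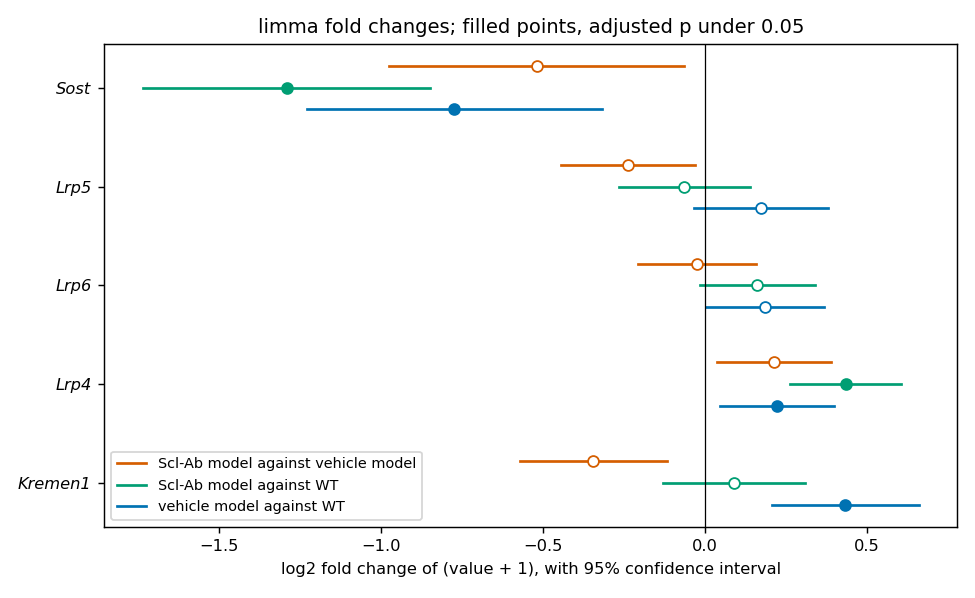
Log2 fold changes of (value + 1) for the 5 tested genes with 95% confidence intervals, in the Scl-Ab model against the vehicle model, the Scl-Ab model against WT and the vehicle model against WT; filled points passed an adjusted p of 0.05. Sost lies left of 0 in each comparison and Lrp4 right of it.

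Contractile smooth muscle genes were lower in the groups in which Sost was lower. Of 18 such genes, 16 fell and 2 did not pass in the vehicle model against WT (median log2 -0.74, against -0.04 over all genes). The same counts were found in the Scl-Ab model against WT (median -0.96, against -0.06). The shares of all genes that fell were 31% in the vehicle model and 30.5% in the Scl-Ab model. On the log2 scale the myosin heavy chain Myh11 fell by 1.27 in the vehicle model, the actin nucleator Lmod1 by 1.15 and the myosin light chain Myl9 by 1.24 (limma adjusted p = 3.69e-08, 3.63e-07 and 5.11e-07). Between the Scl-Ab and vehicle models 1 of 18 fell (Synpo2, log2 -0.59, limma adjusted p = 0.0182) and 17 did not pass, where 4.8% of all genes fell. The whole list summed to 8270 to 19600 in the Scl-Ab model, 7450 to 23300 in the vehicle model and 26700 to 31000 in WT, with no member at 0. The contractile index, the mean log2(value + 1) of the 18 genes, averaged 7.77 ± 0.387 in the Scl-Ab model, 7.94 ± 0.394 in the vehicle model and 8.69 ± 0.069 in WT (SD, n = 10, 9 and 10).

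Sost was therefore also set against that index within each library. The log2 difference of Sost and the index was 0.279 ± 0.482 in the Scl-Ab model, 0.631 ± 0.296 in the vehicle model and 0.653 ± 0.212 in WT (SD, n = 10, 9 and 10). The vehicle model and WT differed by -0.02 (exact permutation test, two-sided, p = 0.851, adjusted over the 3 comparisons 0.851). The Scl-Ab model differed by -0.35 from the vehicle model (exact permutation p = 0.0734, adjusted 0.110), and differed by -0.37 from WT (permutation test with 100000 resamples, p = 0.0335, adjusted 0.101). None of the 3 passed after adjustment. A ratio within a library shows unequal change only, and the choice of denominator matters: set against Myh11 alone, Sost was higher by 0.49 in the vehicle model than in WT (exact permutation adjusted p = 0.00299). With the contractile index as a covariate in limma, the Sost difference was 0.10 between the vehicle model and WT (adjusted p = 0.747) and -0.23 between the Scl-Ab model and WT (adjusted p = 0.494). The contractile index did not overlap between WT and either model group, so the fit with it cannot separate index from group. With the adipocyte index as a covariate the Sost difference was -0.62 between the vehicle model and WT (adjusted p = 0.0102) and -1.07 between the Scl-Ab model and WT (adjusted p = 7.7e-05).

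**Figure D3:**
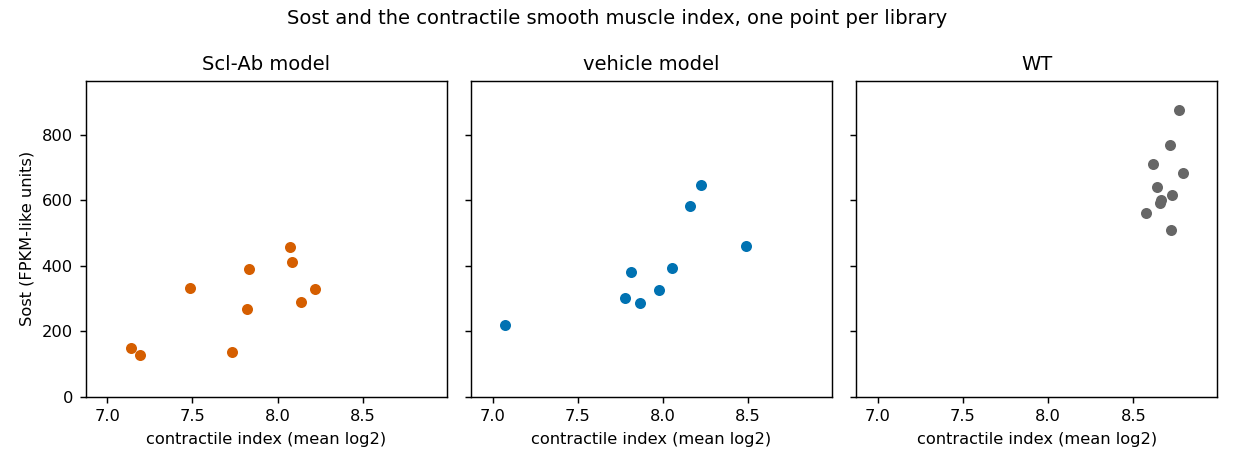
Sost (FPKM-like units, vertical axis) against the contractile index (mean log2(value + 1) of 18 genes, horizontal axis), 1 point per library, in the Scl-Ab model, the vehicle model and WT. WT libraries lie within 8.57 and 8.79 on the index, while the model groups reach down to 7.14 and 7.07.

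Within groups, Sost was related to 3 tissue indices, 9 relations in all. In the vehicle model Sost was higher where the contractile index was higher (n = 9, Pearson r = 0.807, exact permutation p = 0.00627, adjusted 0.0295; Spearman rho = 0.867, exact permutation p = 0.00451, adjusted 0.0203). Without the 2 libraries farthest from the median index r was 0.870 and no longer passed (exact permutation adjusted p = 0.102). Sost was lower where the adipocyte index was higher (n = 9, r = -0.825, exact permutation p = 0.00656, adjusted 0.0295; rho = -0.900, exact permutation p = 0.00203, adjusted 0.0183). There r was -0.679 without the 2 farthest libraries and no longer passed (exact permutation adjusted p = 0.279). With Scl-Ab the contractile relation had r = 0.724 (n = 10, permutation p = 0.0195, adjusted 0.0584) and rho = 0.564 (permutation p = 0.0955, adjusted 0.286), and r was 0.350 without the 2 farthest libraries, so it rests on them. Among the 6 Scl-Ab libraries with title codes ending in 27 or above r was 0.838 (exact permutation p = 0.0444) and rho 0.486 (exact permutation p = 0.356), and the other code ranges held too few libraries for a value. The remaining 6 relations did not pass, among them all 3 with the macrophage index (r = 0.120 in the Scl-Ab model, 0.513 in the vehicle model and 0.00782 in WT). The adipocyte list (14 genes) summed to 1080 to 10000 in the Scl-Ab model, 794 to 12900 in the vehicle model and 509 to 3570 in WT, and the macrophage list (14 genes) to 756 to 1850 in the Scl-Ab model, 986 to 3470 in the vehicle model and 76.5 to 259 in WT. Of the macrophage genes 14 of 14 rose in both comparisons with WT, and their part in the Sost result was not tested. The shares of all genes that rose were 22.7% in the vehicle model and 19.8% in the Scl-Ab model.

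Sostdc1 (chromosome 12, 36314139 to 36318452) was near the limit of detection. It ranged from 0.106 through 0.446 to 1.42 in the Scl-Ab model, from 0.0280 through 0.166 to 0.955 in the vehicle model and from 0.171 through 0.269 to 0.707 in WT, which corresponds to about 1 to 48 fragments a library. The 3 groups overlapped. In a fit with no filter on low values (31865 genes) its log2 difference was 0.21 in the Scl-Ab model against the vehicle model (SE 0.12, limma adjusted p = 0.472) and -0.05 in the vehicle model against WT (SE 0.12, limma adjusted p = 0.852).

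The signalling co-receptors Lrp5 and Lrp6 did not pass in any of the 3 comparisons in the fit of all libraries. Lrp5 (chromosome 19, 3584828 to 3686564) ranged from 8.40 through 14.8 to 20.2 in the Scl-Ab model, from 15.5 through 16.5 to 19.5 in the vehicle model and from 11.98 through 15.5 to 19.001 in WT. The groups overlapped, although 6 of 10 Scl-Ab libraries lay below all vehicle libraries. Lrp5 was 0.848-fold in the Scl-Ab model against the vehicle model (interval 0.735 to 0.979, limma adjusted p = 0.138) and 1.13-fold in the vehicle model against WT (interval 0.978 to 1.30, limma adjusted p = 0.146). Lrp6 (chromosome 6, 134446476 to 134566965) ranged from 10.6 through 17.99 to 21.8 in the Scl-Ab model, from 13.7 through 17.3 to 21.7 in the vehicle model and from 13.96 through 15.05 to 17.05 in WT, and the groups overlapped. It was 0.984-fold in the Scl-Ab model against the vehicle model (interval 0.867 to 1.12, limma adjusted p = 0.907) and 1.14-fold in the vehicle model against WT (interval 1.003 to 1.29, limma adjusted p = 0.0782). The lowest Lrp5, Lrp6 and Kremen1 values of the series were all in Scl-Ab library 17. Without it Lrp6 passed in the Scl-Ab model against WT (log2 0.23, limma adjusted p = 0.00491). Lrp6 also passed there after median-of-ratios scaling (adjusted p = 0.0378) and in the vehicle model against WT (adjusted p = 0.035), and by the Wilcoxon test (adjusted p = 0.0374 for the Scl-Ab model against WT and 0.0329 for the vehicle model against WT). It passed in the vehicle model against WT also without vehicle library 7 (limma adjusted p = 0.031) and with those 2 groups fitted alone (limma adjusted p = 0.0233), as did Lrp5 (limma adjusted p = 0.0435).

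Lrp4 (chromosome 2, 91457511 to 91513779), the receptor that binds sclerostin without carrying the Wnt signal itself, was scarce and was higher in both model groups. It ranged from 1.20 through 1.67 to 2.06 in the Scl-Ab model, from 0.860 through 1.29 to 1.74 in the vehicle model and from 0.427 through 0.915 to 1.31 in WT, which stood for 77 to 467 fragments a library. With Scl-Ab 8 of 10 libraries lay above all WT libraries, and in the vehicle model 4 of 9 did. On the log2(value + 1) scale Lrp4 rose in the Scl-Ab model against WT (log2 0.44, SE 0.08, limma adjusted p = 8.82e-05) and in the vehicle model against WT (log2 0.22, SE 0.09, limma adjusted p = 0.0305). With a pseudocount of 0.1 these differences were 0.75 and 0.41, and the ratio of the mean values was 1.72 for the Scl-Ab model over WT and 1.34 for the vehicle model over WT. Against the vehicle model (value + 1) was 1.16-fold in the Scl-Ab model (interval 1.03 to 1.31, limma adjusted p = 0.119), and the ratio of the means was 1.28. The call of the vehicle model against WT was lost on leaving out vehicle library 2, 4, 6 or 8 or WT library 20 or 21 (adjusted p = 0.0519 to 0.0703), and with no filter, equal sums, the Wilcoxon test or the adipocyte index as a covariate (log2 0.19 to 0.23, adjusted p = 0.052 to 0.0634). With the contractile index as a covariate both calls against WT were lost (log2 0.30, limma adjusted p = 0.0785 for the Scl-Ab model and log2 0.11, adjusted p = 0.460 for the vehicle model). That index did not overlap between WT and either model group, so this fit cannot separate it from the group.

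Kremen1 (chromosome 11, 5191552 to 5261558) had its highest mean in the vehicle model. It ranged from 5.86 through 11.3 to 14.6 in the Scl-Ab model, from 11.7 through 14.5 to 15.8 in the vehicle model and from 7.83 through 10.3 to 12.7 in WT. In the vehicle model 8 of 9 libraries lay above all WT libraries, and 7 of 10 Scl-Ab libraries lay below all vehicle libraries. Kremen1 rose 1.35-fold in the vehicle model against WT (interval 1.15 to 1.58, log2 0.43, SE 0.11, limma adjusted p = 0.00166). Against the vehicle model it was 0.788-fold in the Scl-Ab model (interval 0.673 to 0.922, log2 -0.34, SE 0.11), just outside the threshold (limma adjusted p = 0.0538). It passed on leaving out vehicle library 4 or Scl-Ab library 10, 11 or 13 (adjusted p = 0.0291 to 0.0442). With the adipocyte or contractile index as a covariate it also passed (limma adjusted p = 0.049 in each). It did not pass by the Wilcoxon test (adjusted p = 0.0952). Nor did it pass in limma with the 2 groups alone (adjusted p = 0.104), no filter (0.121) or equal sums (0.184). Leaving out a library gave log2 -0.387 to -0.255. Against WT it was 1.06-fold in the Scl-Ab model (interval 0.914 to 1.24, limma adjusted p = 0.499).

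Circadian clock genes also differed between the groups. The clock index, the mean log2(value + 1) of Dbp, Per1, Per2, Per3, Nr1d1, Nr1d2, Tef and Hlf minus that of Arntl, Npas2, Clock and Nfil3, averaged 3.01 ± 0.635 in the Scl-Ab model, 0.577 ± 1.16 in the vehicle model and 2.53 ± 1.55 in WT (SD, n = 10, 9 and 10). It differed by 2.43 between the Scl-Ab and vehicle models (exact permutation p = 0.000108, adjusted 0.00026) and by -1.95 between the vehicle model and WT (exact permutation p = 0.00844, adjusted 0.0169). Kremen1 was lower where the index was higher in each group, a relation examined after the values were seen (3 relations). With Scl-Ab r was -0.794 (n = 10, permutation p = 0.00685, adjusted 0.0103; rho = -0.830, permutation p = 0.00525, adjusted 0.00787). In the vehicle model r was -0.769 (n = 9, exact permutation p = 0.0133, adjusted 0.0133; rho = -0.600, exact permutation p = 0.0968, adjusted 0.0968). In WT r was -0.821 (n = 10, permutation p = 0.00453, adjusted 0.0103; rho = -0.842, permutation p = 0.00367, adjusted 0.00787). Without the 2 libraries farthest from the median index r was -0.860 in the Scl-Ab model, -0.488 in the vehicle model and -0.750 in WT, so in the vehicle model the relation rests on those libraries. In WT the index also ran with the code in the library titles, from 0.120 to 2.27 at codes up to 3005 and from 3.07 to 4.34 above, so that within WT code and index cannot be told apart. With the index as a covariate in limma the Kremen1 difference was -0.01 between the Scl-Ab and vehicle models (adjusted p = 0.998) and 0.16 between the vehicle model and WT (adjusted p = 0.221). This was not particular to Kremen1. Between the Scl-Ab and vehicle models Lrp4 went from 0.21 to 0.02 with the covariate, Lrp5 from -0.24 to -0.04 and Sost from -0.52 to -0.37. The number of all genes called there went from 1005 to 3. The index itself differed between these groups, so the fit cannot well separate index from treatment. Relations of the other genes to the index within groups were not examined.

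**Figure D4:**
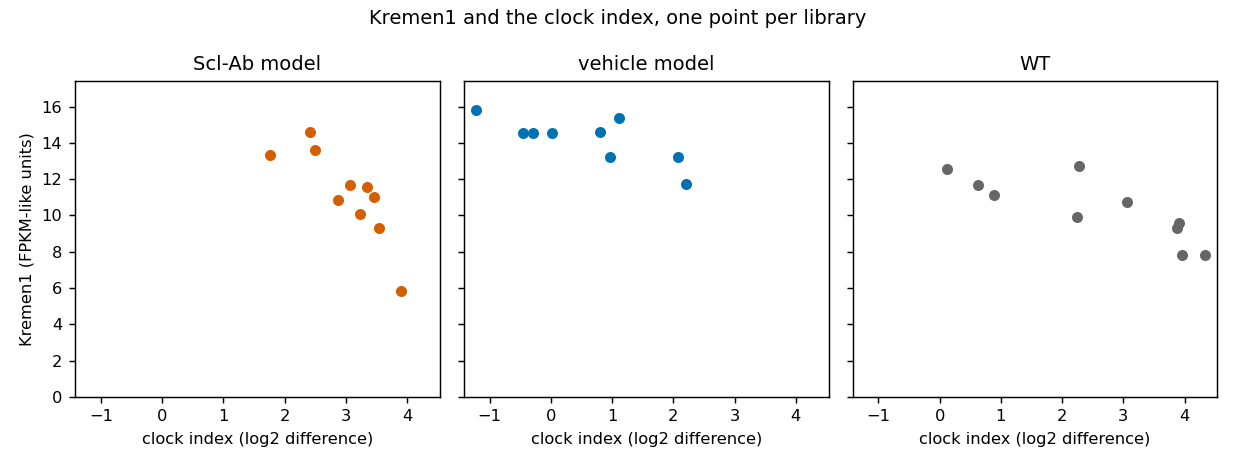
Kremen1 (FPKM-like units, vertical axis) against the clock index (log2 difference, horizontal axis), 1 point per library, in the Scl-Ab model, the vehicle model and WT. Kremen1 is lower at higher index within each panel, and the Scl-Ab libraries lie between 1.76 and 3.90 on the index while the vehicle libraries lie between -1.22 and 2.20.

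The library titles carry a code that the labels do not explain, and its last digits fall in 2 ranges in both model groups. Among codes ending in 15 or below, Sost averaged 285 ± 103 in the Scl-Ab model and 320 ± 82.8 in the vehicle model (SD, n = 4 each). Among codes ending in 27 or above it averaged 292 ± 136 in the Scl-Ab model (SD, n = 6) and 463 ± 153 in the vehicle model (SD, n = 5). Kremen1 averaged 13.1 ± 1.59 in the Scl-Ab model and 13.5 ± 1.35 in the vehicle model in the first range, and 9.92 ± 2.19 in the Scl-Ab model and 14.7 ± 0.982 in the vehicle model in the second. Lrp5 averaged 16.8 ± 2.85 in the Scl-Ab model and 16.2 ± 0.469 in the vehicle model in the first range, and 13.4 ± 2.80 in the Scl-Ab model and 18.1 ± 1.25 in the vehicle model in the second. Lrp4 averaged 1.69 ± 0.347 in the Scl-Ab model and 1.24 ± 0.209 in the vehicle model in the first range, and 1.57 ± 0.297 in the Scl-Ab model and 1.28 ± 0.337 in the vehicle model in the second. Sost and Kremen1 thus differed more in the second range and Lrp4 more in the first, while the Lrp5 means differed in opposite directions. Whether the ranges differ was not tested. Model codes of the first range end in 12 to 15 and WT codes end in 1 to 10. No ending is shared with WT, so code and the difference from WT cannot be told apart. Within WT, Kremen1 averaged 11.6 ± 1.13 at codes up to 3005 and 9.06 ± 1.24 above (SD, n = 5 each), and Lrp4 averaged 0.757 ± 0.203 and 1.13 ± 0.144 in the same 2 sets. With the WT libraries up to 3005 alone Kremen1 did not pass in the vehicle model against WT (log2 0.27, limma adjusted p = 0.0941), and with those above 3005 alone neither Lrp4 (log2 0.08, adjusted p = 0.519) nor Sost (log2 -0.71, adjusted p = 0.0518) did.

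Receptors related to LRP5 and LRP6 went both ways, as did all genes (22.7% higher and 31% lower in the vehicle model against WT). Of 11 listed genes 9 were tested, and in the vehicle model against WT 4 rose (Lrp1, Lrp8, Lrp11 and Lrp12), 3 fell (Vldlr, Lrp3 and Lrp10) and 2 did not pass (median log2 -0.11). Lrp11 rose to 1.69 ± 0.172 in the vehicle model, against 0.623 ± 0.113 in WT, and Lrp3 fell to 9.28 ± 1.12 in the vehicle model, against 14.1 ± 1.24 in WT. Vldlr, a receptor for lipoproteins and reelin, fell to 15.8 ± 2.96 in the vehicle model, against 26.7 ± 2.42 in WT (SD, n = 9 and 10). Between the Scl-Ab and vehicle models 0 of 9 passed with limma (adjusted p = 0.0516 for Lrp11, log2 -0.23), where 7.44% of all genes did.

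Secreted partners and modulators of the LRP receptors were called about as often as all genes, 6 of 11 where 53.7% of all genes were. Of 18 listed genes 11 were tested, and in the vehicle model against WT 1 rose, 5 fell (Agrn, Wif1, Lgr4, Lgr6 and Rspo3) and 5 did not pass (median log2 -0.14). Dkk2, a Dickkopf ligand of LRP6 and KREMEN1, rose to 1.59 ± 1.09 in the vehicle model, against 0.299 ± 0.140 in WT. Lgr4, a receptor for R-spondins, fell to 7.41 ± 1.09 in the vehicle model, against 9.83 ± 0.553 in WT. Rspo3, an R-spondin that enhances Wnt signalling, averaged 4.39 ± 1.30 in the Scl-Ab model, 2.62 ± 0.786 in the vehicle model and 4.58 ± 1.02 in WT (SD, n = 10, 9 and 10). It rose in the Scl-Ab model against the vehicle model (log2 0.57, limma adjusted p = 0.0180) and fell in the vehicle model against WT (log2 -0.63, limma adjusted p = 0.000531). Mesd, the chaperone that LRP5 and LRP6 need to reach the cell surface, was the other gene of the list that passed between the Scl-Ab and vehicle models (log2 -0.23, limma adjusted p = 0.0195). In that comparison 2.64% of all genes rose and 4.8% fell. Dkk4 was listed at 0 in all 29 libraries, and Dkk1 was at most 0.210.

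**Figure D5:**
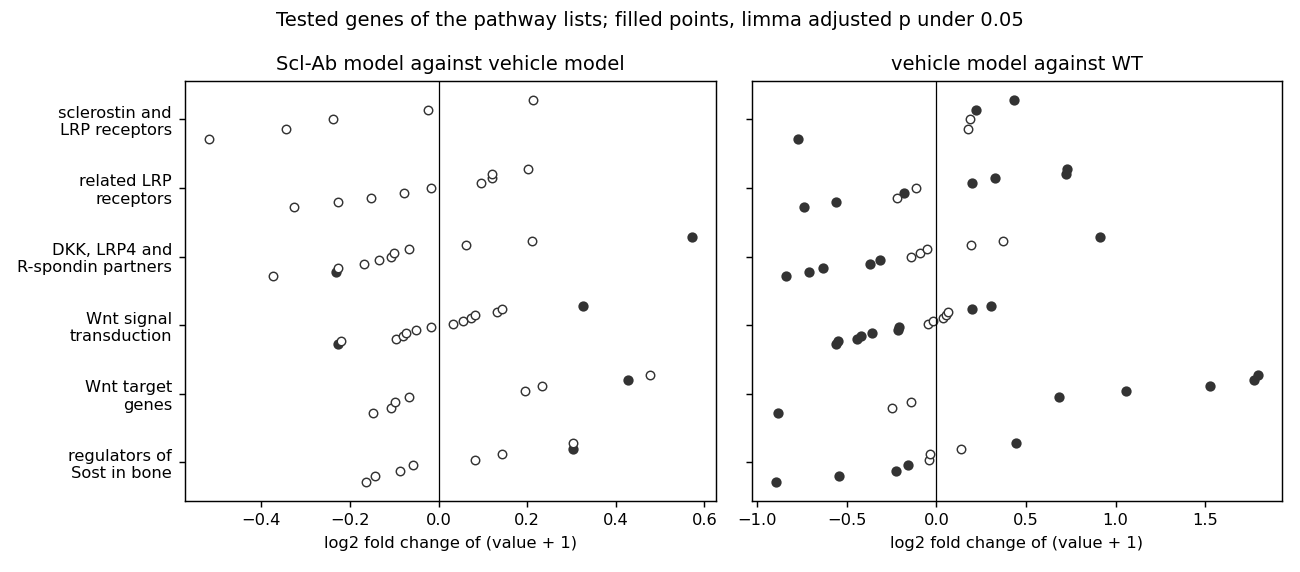
Log2 fold changes of (value + 1) for the tested genes of 6 lists, 1 point per gene, in the Scl-Ab model against the vehicle model and in the vehicle model against WT (the horizontal scales differ); filled points passed a limma adjusted p of 0.05. Between the Scl-Ab and vehicle models 0 of 5 sclerostin and receptor genes are filled, and between the vehicle model and WT 3 of 5 are.

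Genes that carry the Wnt signal inside the cell changed by small amounts. In the vehicle model against WT 22.7% of all genes rose and 31% fell. Of 16 listed 14 were tested, and in the vehicle model against WT 2 rose (Apc and Csnk1g3), 7 fell and 5 did not pass (median log2 -0.13). Gsk3a, a kinase of the β-catenin destruction complex, fell by 0.44 on the log2 scale, Tcf7l2, a transcription factor that binds β-catenin, by 0.56, and Dvl2, a Dishevelled adaptor, by 0.55 (limma adjusted p = 5.10e-09, 4.24e-06 and 4.36e-06). Between the Scl-Ab and vehicle models Dvl2 rose with Scl-Ab (log2 0.33, limma adjusted p = 0.0203), the kinase gene Csnk1a1 fell (log2 -0.23, limma adjusted p = 0.0292) and 12 did not pass. In that comparison 2.64% of all genes rose and 4.8% fell.

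Most tested genes known as Wnt targets in other settings rose in the vehicle model against WT, where 22.7% of all genes rose and 31% fell. Of 14 listed 8 were tested, and in the vehicle model against WT 5 rose (Nkd2, Ccnd1, Myc, Tnfrsf11b and Wisp1), 1 fell (Nkd1) and 2 did not pass (median log2 0.87). Tnfrsf11b, which encodes osteoprotegerin, averaged 46.2 ± 19.03 in the Scl-Ab model, 33.1 ± 15.8 in the vehicle model and 8.17 ± 2.06 in WT. Wisp1, a matricellular protein, averaged 9.36 ± 5.93 in the Scl-Ab model, 7.31 ± 2.02 in the vehicle model and 1.39 ± 0.363 in WT. Nkd1, a feedback inhibitor of Dishevelled, averaged 19.4 ± 4.20 in the Scl-Ab model, 21.8 ± 5.05 in the vehicle model and 40.4 ± 4.71 in WT (SD, n = 10, 9 and 10). Against the vehicle model 1 rose with Scl-Ab, Nkd2 (log2 0.43, limma adjusted p = 0.0216), and 7 did not pass, where 2.64% of all genes rose. Axin2, the general feedback target, averaged 1.57 in the Scl-Ab model, 1.18 in the vehicle model and 1.57 in WT and did not pass (limma adjusted p = 0.197 for the Scl-Ab against the vehicle model and 0.0630 for the vehicle model against WT).

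Genes that regulate Sost in bone were examined too. For comparison, 22.7% of all genes rose and 31% fell in the vehicle model against WT. Of 9 listed 8 were tested, and in the vehicle model against WT 1 rose (Runx2), 4 fell (Hdac5, Hdac4, Mef2c and Mef2d) and 3 did not pass (median log2 -0.10). Hdac5, a histone deacetylase that represses Sost through MEF2C in bone cells, averaged 30.1 ± 5.17 in the Scl-Ab model, 24.6 ± 6.66 in the vehicle model and 45.5 ± 3.90 in WT. Mef2c, a transcription factor that drives Sost in osteocytes, averaged 20.5 ± 4.50 in the Scl-Ab model, 18.6 ± 4.75 in the vehicle model and 27.1 ± 3.58 in WT (SD, n = 10, 9 and 10), and both fell in the vehicle model against WT (limma adjusted p = 2.32e-07 and 0.000612). Runx2, a transcription factor of bone-forming cells, rose in the vehicle model against WT (log2 0.44, limma adjusted p = 2.07e-05) and in the Scl-Ab model against the vehicle model (log2 0.30, limma adjusted p = 0.0180). Of 10 bone genes 4 were tested, and in the vehicle model against WT 1 rose (Col1a1, also made by fibroblasts), 2 fell (Phex and Alpl) and 1 did not pass. Between the Scl-Ab and vehicle models 0 of these 4 passed with limma, where 7.44% of all genes did (2.64% higher and 4.8% lower).

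The genes beside Sost went both ways, as did all genes (22.7% higher and 31% lower in the vehicle model against WT). Of 14 protein-coding neighbours within 250 kb, 10 were tested, and in the vehicle model against WT 2 rose, 4 fell and 4 did not pass (median log2 -0.08). Dusp3, the nearest at 4128 bases, had a log2 difference of 0.06 (limma adjusted p = 0.717). Meox1, a homeobox gene, and Etv4, an ETS factor, rose by log2 0.86 and 0.60, while Hdac5, Mpp2, G6pc3 and Lsm12 fell by 0.90, 0.60, 0.37 and 0.15. Dhx8, Cd300lg and Tmem101 did not pass. Against the vehicle model Mpp2 rose with Scl-Ab (log2 0.56, limma adjusted p = 0.0183) and 9 did not pass, where 2.64% of all genes rose.

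Likeness to each gene was measured as Pearson's r of log2(value + 1) over the 29 libraries after subtracting each group's mean, as a description with no test; these libraries share tissue and depth. Most like Sost were Nacc1 (r = 0.903), Cds2 (0.877), Lynx1 (0.865), Srf (0.856) and Crim1 (0.854), although in WT alone r was 0.485 for Nacc1 and 0.322 for Lynx1. Least like it were Pyroxd2 (r = -0.818), Hsd3b7 (-0.811) and Nmnat3 (-0.770). For Lrp6 the highest were Zfp106 (0.923), Oxr1 (0.915) and Zfp148 (0.912), and for Kremen1 Cmtm6 (0.919), Clint1 (0.874) and Fndc3b (0.873). For Lrp5 they were Zcchc24 (0.853), Arid1b (0.852) and Kremen1 itself (0.845), the third most like of the genes ranked. Gm and Rik gene models, immunoglobulin and T cell receptor genes and accession-like symbols were left out of all these rankings. For Lrp5 and Zcchc24 r was 0.95 in the Scl-Ab model, 0.063 in the vehicle model and 0.871 in WT. For Lrp4 they were Ebi3 (0.736), Ptpn18 (0.702) and Man2a2 (0.702). Among the 6 genes, Lrp5 and Lrp6 had r = 0.663 and Lrp6 and Kremen1 0.639, while Sost had 0.420 with Kremen1, 0.386 with Lrp5, 0.107 with Lrp6 and -0.142 with Lrp4.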

How the data were processed

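Each deposited file holds 1 FPKM-like value for each of 51456 symbols in 1 library; per the file headers the authors call the unit FPKQ, without explaining the name. Per the labels' protocols, stranded mRNA libraries were made from RNA with an integrity number of at least 7. GRCm38 and DESeq2 1.10.1 are named in the submitters' processing notes with no role; no aligner, counter or annotation is given in the sources used here. Low values lay on steps of 1 fragment (77.4 to 80.6% within 0.05 of a whole step), from which fragments were estimated; sums ranged from 496126 to 678907. No count model was used.

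The log2(value + 1) matrix was fitted in limma 3.58.1 (trend, robust; R 4.3.3), all 29 libraries in 1 fit of 3 group means. Permutation tests of group differences used SciPy 1.17.1, and those of correlations took all orders below 10 libraries and 100000 random orders otherwise. Coordinates are from GENCODE M21, which matched 45797 symbols once. Tested on simulated data (50 genes per fold among 13510), the fit recovered 46% of 1.25-fold, 82% of 1.5-fold and 98% of 2-fold changes between the Scl-Ab and vehicle models, with 10 false calls. These folds were of (value + 1), noise was independent between genes and 200 genes were changed. In the real data genes vary together, so the shares are not the power for the genes described here. The genes, lists and relations were chosen with earlier results of these data known. One gene of the list of receptors related to LRP5 and LRP6 is not reported here and is left out of that list's counts. Named were the 6 genes, members at 0 throughout, tested neighbours of Sost and the genes most like each of the 5 tested. To be named too were the 3 members of each list with the smallest p between the model and WT or between the Scl-Ab and vehicle models. For the adipocyte, macrophage, endothelial, fibroblast, cardiac and clock lists not all of these 3 were described. Other genes named were chosen after their values were seen. Alternatives were another pseudocount, no filter, 2 other scalings, 2 groups alone, the Wilcoxon test, covariates, title code pairs as a block and leaving out each library.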

Additional observations from a re-analysis of the deposited data

Results flagged for a closer look

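Sostdc1 in Scl-Ab library 12 was 1.42, far above the other 9 libraries of its group, which averaged 0.393 ± 0.171 (SD, n = 9). The gap to the next library was 0.590 of the group's range. The value stands for about 48 fragments. Of 18 groups of values checked for a library that stands apart, this was the 1 found, and chance alone gives about 1 in 20.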

How the results depend on the processing

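Replicate numbers in the labels are not shared between groups. The last 2 digits of the title code recur in both model groups in 8 pairs, which nothing in the labels ties to a litter, batch or day. The deviations of same-numbered libraries from their group means had r of -0.540 to 0.618, over 0.1 in 2 of 8 pairs, and 2 of 8 Scl-Ab libraries matched their own number best. With these digits as a replicate block (chosen after seeing the data) 0 of the 5 genes and 7 of all genes were called between the Scl-Ab and vehicle models, against 0 and 180 in the same 16 libraries with no block, and Lrp6 was 0.103 in both. The number of the 5 tested genes called between the vehicle model and WT was 3, and became 5 with the 2 groups alone, 1 with the contractile index as a covariate and 1 with WT libraries above code 3005 alone (chosen after seeing the data). Leaving out 1 library gave 2 to 4. Between the Scl-Ab and vehicle models it was 0, became 1 (Kremen1, adjusted p = 0.049 in each) with the adipocyte or contractile index as a covariate, and was 0 to 1 on leaving out a library. Between the Scl-Ab model and WT it was 2, became 0 with the contractile covariate and was 2 to 3 on leaving out a library. The direction of Sost in the vehicle model against WT turned with the contractile covariate (0.10, against -0.77). The contractile index did not overlap between WT and the model groups, so fits against WT with it cannot separate index from group. Lrp6 in the Scl-Ab against the vehicle model turned to 0.00742 with equal sums and to 0.0666 with the clock covariate, and ranged from -0.065 to 0.0472 on leaving out a library. Lrp5 in the Scl-Ab model against WT turned to 0.00356 with WT libraries above code 3005, ranging from -0.113 to 0.0172 on leaving out a library, and Kremen1 to -0.0745 with those up to 3005. Set against Myh11, Sost gave 0.49 between the vehicle model and WT and 0.0387 between the Scl-Ab model and WT. Against the contractile index, leaving out a library gave -0.0832 to 0.0198 for the vehicle model against WT, -0.421 to -0.253 for the Scl-Ab against the vehicle model and -0.443 to -0.275 for the Scl-Ab model against WT, and both comparisons of the Scl-Ab model passed without Scl-Ab library 11 (adjusted p = 0.0487 and 0.0368). Without the 2 libraries farthest from the median index the vehicle relations no longer passed (adipocyte r = -0.679, contractile r = 0.870), and the WT adipocyte r was -0.601. The WT macrophage r was -0.000631 with a pseudocount of 0.1. Over all genes, 1005 were called between the Scl-Ab and vehicle models, against 447 with no filter, 369 with equal sums, 309 with the 2 groups alone, 412 by the Wilcoxon test, 348 with the code range, 1590 and 1656 with the adipocyte and contractile covariates and 3 with the clock covariate. Causes were not tested. Sostdc1 stood on 1 to 48 fragments a library.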

Other observations

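Markers of other cell types shifted between the groups beside the genes above. Shares over all genes were 22.7% higher and 31% lower in the vehicle model against WT. They were 2.64% higher and 4.8% lower in the Scl-Ab model against the vehicle model, and 19.8% and 30.5% against WT. Of 10 endothelial genes, 8 rose in the vehicle model against WT and 2 did not pass, and in the Scl-Ab model against the vehicle model 4 fell (Pecam1, Vwf, Nos3 and Esam) and 6 did not pass. Vwf, which encodes von Willebrand factor, rose in the vehicle model against WT (log2 0.95, limma adjusted p = 0.000266) and fell in the Scl-Ab model against the vehicle model (log2 -0.73, limma adjusted p = 0.0273). Of 10 fibroblast genes, 6 rose in the vehicle model against WT and 0 of 10 passed in the Scl-Ab model against the vehicle model with limma. Lum, a collagen-binding proteoglycan, rose by log2 1.95 (limma adjusted p = 1.66e-06). Of 9 tested cardiac genes 1 rose in the Scl-Ab model against the vehicle model, Nppa, which encodes atrial natriuretic peptide (log2 2.52, limma adjusted p = 0.0387). The other 8 did not pass, and the median log2 difference of the 9 was 2.05. In the Scl-Ab model against WT 5 of the 9 rose and 4 did not pass (median log2 1.94). In the vehicle model against WT 1 of the 9 fell, Ryr2 (log2 -0.50, limma adjusted p = 0.0046), and 8 did not pass.

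Of 8 clock genes that share a phase, 7 fell in the vehicle model against WT (31% of all genes). In the Scl-Ab model against the vehicle model 5 rose (2.64% of all genes). Of the 4 in the opposite phase, 3 rose in the first of these comparisons (22.7% of all genes) and 4 fell in the second (4.8%). Per3 rose by log2 1.78 and Npas2 fell by 1.62 in the Scl-Ab model against the vehicle model (limma adjusted p = 0.00644 and 0.00529). Among the 6 Scl-Ab libraries with title codes ending in 27 or above, Kremen1 and the clock index had r = -0.873 (exact permutation p = 0.0278) and rho = -0.829 (exact permutation p = 0.0583).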
